A study of Mus musculus with 4 samples.

Results

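The genes described here are the mouse genes of the forkhead (Fox), Sry-related HMG box (Sox) and T-box (Tbx) transcription factor families, taken by name: Fox followed by a letter and a digit, or Sox or Tbx followed by a digit. All 71 such names on the array had at least 3 probes whose input DNA signal was well above background on all 4 arrays, so 71 of the 18332 genes measured that way were members: 42 Fox, 16 Sox and 13 Tbx genes. Foxr1, with 3 kept probes, and Foxk2, with 4, lay just inside that limit and no member lay outside it. The members had 3113 probes on the array, and 1964 of these were kept (63.1%), with a median of 29 a gene. Of the kept probes, 714 lay between genes, 762 in introns, 255 in coding exons and 233 in untranslated or non-coding exons.

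Methylated DNA from mouse leukaemic cells was measured by immunoprecipitation and hybridisation to promoter and CpG island arrays (MeDIP-chip), with 1 array for each of 4 groups: KO cells given decitabine, KO cells without treatment, WT cells given decitabine and WT cells without treatment. Treated cells received 20 nM decitabine at 24 h intervals on 3 days, and DNA of all groups was taken at 72 h. The knockout is not settled by the labels: the sample source names give an Mll5 knockout and the genotype field gives HOXA9 KO, and the meaning of the letters HM in the source names is not given. All 4 groups are leukaemic cells grown with interleukin-3, interleukin-6 and stem cell factor, and no normal blood cells are among them. With 1 array a group there is no replicate, each array came from its own slide, and slide and group cannot be told apart.

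Forkhead factors bind DNA through a winged-helix domain, Sox factors bend DNA through an HMG box, and T-box factors bind through the domain first described in Brachyury. Many members set cell identity in the embryo, and their starts tend to lie in CpG islands, stretches rich in CpG dinucleotides that are mostly unmethylated in normal cells. In cancers, several such islands are known to gain methylation. Decitabine is a cytosine analogue that is built into DNA and traps DNA methyltransferases, so that methylation is lost as cells divide. In MeDIP, an antibody against methylated cytosine pulls down fragments, and the recovered amount depends on both how methylated the CpGs are and how many a fragment holds.

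Levels are given as log2 of MeDIP over input signal, averaged over the kept probes of a gene and centred on each array's median over all its non-control probes. A value below 0 means a lower ratio than that median probe. The spread over the probes of a gene was wide, with a standard deviation of 0.95 on average over members and arrays, and probes of a gene are not replicates. MeDIP signal was often too weak to stand out. Of all spots, it was well above background on 10.7% in KO decitabine cells, 2.69% in KO untreated cells, 9.34% in WT decitabine cells and 2.73% in WT untreated cells. The array's DNA offers no test of the knockout: input was above background at 13 and 16 of 17 probes in or near Mll5 in KO decitabine and KO untreated cells, against 16 of 17 in both WT samples. At Hoxa9 these counts were 28 and 32 of 39 probes in KO cells, decitabine and untreated, against 35 and 34 in WT cells. The deleted part is not stated.

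Stretches of high ratio shared by all samples are shown first, as read from the array design, with the CpGs in capitals. They are the probes of 3 of the 4 blocks found in the members, in which at least 3 neighbouring kept probes, each starting within 500 bp of the last, had log2 ratios above 0 on all 4 arrays. These lie before the start of Tbx19, before the start of Tbx18 and in the first kilobase of Foxa3, within an intron. The fourth, in Foxk1, is in an untranslated or non-coding exon and is described below by its values only. Positions are of mouse build NCBI37 (mm9), and all match the + strand of the genome.
Tbx19 chr1:167091485-167091544 (+): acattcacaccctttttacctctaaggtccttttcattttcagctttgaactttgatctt
Tbx19 chr1:167091924-167091983 (+): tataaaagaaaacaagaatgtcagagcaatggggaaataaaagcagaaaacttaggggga
Tbx19 chr1:167092089-167092148 (+): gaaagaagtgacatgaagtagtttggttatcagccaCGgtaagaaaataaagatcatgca
Tbx19 chr1:167092400-167092456 (+): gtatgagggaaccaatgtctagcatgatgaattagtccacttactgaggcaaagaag
Tbx19 chr1:167092874-167092929 (+): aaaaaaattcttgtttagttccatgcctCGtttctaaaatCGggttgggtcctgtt
Tbx18 chr9:87626501-87626559 (+): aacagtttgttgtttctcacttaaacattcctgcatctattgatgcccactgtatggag
Tbx18 chr9:87626647-87626706 (+): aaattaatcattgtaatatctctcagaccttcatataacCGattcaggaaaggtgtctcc
Tbx18 chr9:87626891-87626950 (+): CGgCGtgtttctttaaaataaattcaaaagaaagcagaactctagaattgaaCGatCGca
Tbx18 chr9:87627037-87627096 (+): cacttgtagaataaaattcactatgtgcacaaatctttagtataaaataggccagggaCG
Foxa3 chr7:19607953-19608006 (+): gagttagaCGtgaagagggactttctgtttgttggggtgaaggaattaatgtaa
Foxa3 chr7:19608127-19608180 (+): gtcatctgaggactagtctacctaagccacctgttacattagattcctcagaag
Foxa3 chr7:19608328-19608386 (+): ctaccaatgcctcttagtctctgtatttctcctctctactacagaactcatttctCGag
A probe in an intron of Sox6 is added as an example whose MeDIP signal was well above background, and its ratio high, on all 4 arrays. Of 49 member probes with MeDIP signal above background on all 4 arrays, 14 had ratios above 0 on all 4 and 15 below 0.
Sox6 chr7:122967753-122967812 (+): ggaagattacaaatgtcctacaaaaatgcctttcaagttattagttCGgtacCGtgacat
For contrast, the CpG-dense probes just before the starts of Foxo6 and Foxj3, the members with the largest differences under decitabine, are shown here.
Foxo6 chr4:119960414-119960458 (+): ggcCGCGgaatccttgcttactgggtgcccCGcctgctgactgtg
Foxj3 chr4:119212222-119212266 (+): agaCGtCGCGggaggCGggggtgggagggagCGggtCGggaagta
A longer stretch of 250 bases around the Tbx19 probe 1214 bp before the start held 6 CpGs and 46.8% G or C. It is read 5′ to 3′ on the strand of the gene and overlaps no annotated exon.
Tbx19 chr1:167091948-167092197 (-): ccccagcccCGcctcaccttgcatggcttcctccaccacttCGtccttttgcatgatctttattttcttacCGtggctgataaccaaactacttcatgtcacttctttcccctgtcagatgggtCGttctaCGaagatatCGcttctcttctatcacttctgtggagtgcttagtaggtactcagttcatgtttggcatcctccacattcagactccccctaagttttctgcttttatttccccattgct

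Tbx19, the factor that drives pituitary corticotroph cells to make pro-opiomelanocortin, had the highest level of the 71 members. It lies on chromosome 1 (167067986 to 167090904, minus strand), and its 17 kept probes averaged 0.47 ± 1.38 in KO decitabine cells, 0.18 ± 1.15 in KO untreated cells, 0.28 ± 1.19 in WT decitabine cells and -0.07 ± 1.20 in WT untreated cells (SD over probes). It was the highest member on each of the 4 arrays. Its block of 5 probes, 610 to 1997 bp before the start, averaged 1.97 in KO decitabine cells, 1.35 in KO untreated cells, 1.60 in WT decitabine cells and 1.14 in WT untreated cells. Only 4 of the 5 probes in KO decitabine cells and 2 in WT decitabine cells had MeDIP signal well above background, and none did in either untreated sample. The probe 1214 bp before the start, with 1 CpG, gave 3.07, 2.04, 1.85 and 1.18 in the same order of samples.

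Tbx18, which acts in the epicardium, the ureter and the pacemaker region of the heart, had a block of 4 probes 435 to 971 bp before its start. The block averaged 0.75 in KO decitabine cells, 0.81 in KO untreated cells, 1.52 in WT decitabine cells and 1.46 in WT untreated cells. By this ratio both WT samples lay above both KO samples. MeDIP signal alone did not keep that order: set against the members' median kept probe, it was lowest in WT decitabine cells. It was 1.29 in KO decitabine, 1.14 in KO untreated and 1.41 in WT untreated cells. Input signal on that scale was -0.04 and -0.57 in KO cells, decitabine and untreated, against -1.30 and -1.18 in WT cells. The part of input in the order was not tested. In Foxa3, a forkhead factor of liver and gut, the block was 3 intron probes 530 to 908 bp after the start. They averaged 2.25 in KO decitabine, 1.28 in KO untreated, 1.44 in WT decitabine and 1.26 in WT untreated cells, highest in KO decitabine cells. MeDIP signal was well above background at 3, 0, 2 and 1 of these probes in the same order of samples. Foxk1, a forkhead factor known in muscle progenitors, had a block of 4 probes in the untranslated or non-coding end of the gene, at chr5:142937385-142937899. It averaged 2.10 in KO decitabine cells, 1.80 in KO untreated cells, 2.35 in WT decitabine cells and 1.07 in WT untreated cells. Of its 4 probes, 4, 3, 4 and 1 had MeDIP signal well above background in that order.

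These 4 genes were the members with such a block, 5.63% of 71, against 646 of all 18332 genes (3.52%). None of the 64 MeDIP values in the blocks was a surrogate put in place of a signal too close to background, and 27 were well above background. On every array the block probes had more MeDIP signal than the median kept probe of the members, by 1.0 to 2.60 on the log2 scale. Their input signal was lower than that of the median kept probe on every array (Tbx18 by the least in KO decitabine cells, -0.04, and the most in WT decitabine cells, -1.30), and the ratio takes up that difference too. Block probes were taken for ratios above 0 on all 4 arrays. That choice favoured high MeDIP signal, low input signal and few surrogates, so these values are no separate support for the blocks. The block rule was chosen after the values had been seen, and Foxk1 and Foxj3 were named after their values were seen. In Sox6, a factor of red cell and cartilage development, the intron probe at chr7:122967753-122967812 gave 2.01, 1.84, 2.09 and 2.26 in KO decitabine, KO untreated, WT decitabine and WT untreated cells, nearly level over the 4 samples.

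**Figure D1:**
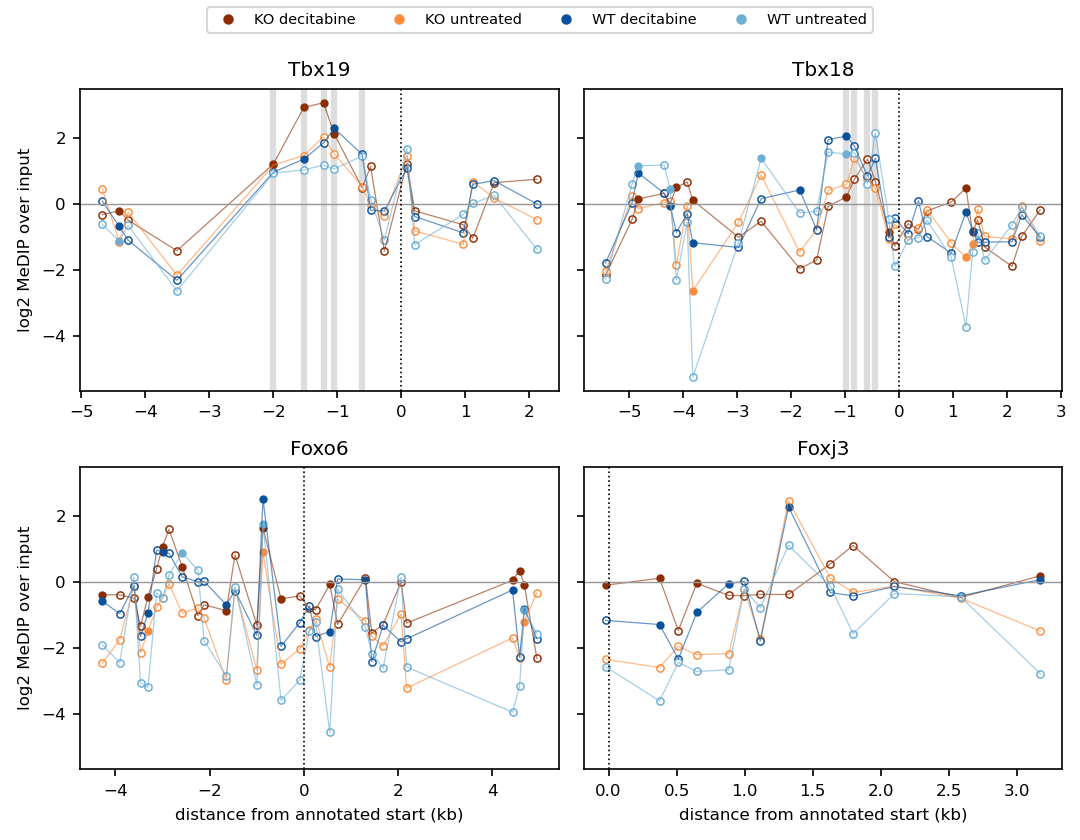
Log2 ratio of MeDIP over input (y axis) for each kept probe of Tbx19, Tbx18, Foxo6 and Foxj3 against the distance of the probe from the start of the gene in kilobases (x axis), for the 4 arrays. Filled points have MeDIP signal well above background, open points do not, and grey bands mark the block probes. The 5 Tbx19 and 4 Tbx18 block probes lie above 0 on every array, and the printed probes 482 bp before Foxo6 and 22 bp before Foxj3 are lowest in the untreated samples, while other probes near those starts are not.

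As families, the members lay slightly below all genes on most arrays. The Fox median was -0.42 in KO decitabine cells, -0.70 in KO untreated cells, -0.60 in WT decitabine cells and -0.94 in WT untreated cells, the all-gene median -0.46, -0.64, -0.48 and -0.72 on the same arrays. The Sox median was -0.46, -0.72, -0.61 and -1.03 and the Tbx median was -0.57, -0.69, -0.81 and -0.89, again in the order KO decitabine, KO untreated, WT decitabine and WT untreated. In WT untreated cells 33 of 42 Fox, 14 of 16 Sox and 7 of 13 Tbx genes lay below the all-gene median. In KO decitabine cells 17 Fox, 8 Sox and 9 Tbx genes did.

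The order of the 3 families was not the same on all arrays. The Sox median was below the Fox median on all 4, by 0.02 to 0.08. Tbx stood 0.15 below Fox in KO decitabine cells and 0.21 below Fox in WT decitabine cells, and 0.05 above Fox in WT untreated cells. These differences are small beside the spread within a family, whose standard deviation over genes in WT untreated cells was 0.33 for Fox, 0.30 for Sox and 0.51 for Tbx. No test of the families was made, since the genes of an array share 1 sample.

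**Figure D2:**
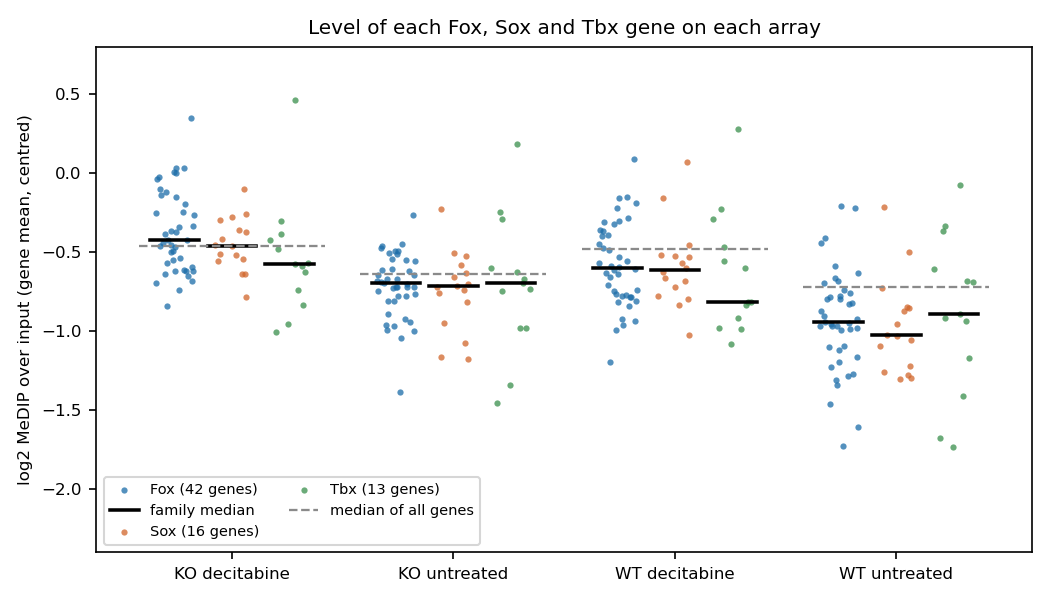
Log2 ratio of MeDIP over input, as the mean over the kept probes (y axis), of each of the 42 Fox, 16 Sox and 13 Tbx genes on the 4 arrays (x axis). Black bars are family medians and dashed lines the medians of all 18332 genes. In WT untreated cells all 3 family medians lie below the dashed line, and in KO decitabine cells the Fox median lies above it.

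The families differed from all genes in CpG content, which the name rule did not use. Kept probes sat in 500 bp windows with a median over genes of 12 CpGs for Fox, 14.8 for Sox and 12.5 for Tbx, against 7 for all genes. Windows were called CpG-dense where CpGs reached 0.75 of the number that base composition predicts and G or C made up 55% or more. This class held 18.0% of Fox probes, 18.1% of Sox probes and 6.60% of Tbx probes, against 9.25% of all kept probes. Within the CpG-dense class Fox probes had medians of -0.43 in KO decitabine cells, -1.10 in KO untreated cells, -1.15 in WT decitabine cells and -1.54 in WT untreated cells, close to the -0.53, -1.25, -1.13 and -1.61 of all CpG-dense probes. CpG-poor probes of the Fox genes, with CpGs under 0.48 of the predicted number, gave -0.33, -0.47, -0.33 and -0.50. The gap between the classes was thus widest in WT untreated cells and narrowest in KO decitabine cells.

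When each probe was set against all kept probes with the same number of CpGs in its window, the families lay closer to all genes, but the differences between the families did not all shrink. The family medians then lay between -0.10 and 0.11 of the all-gene median on every array, and averaged over the 4 arrays Fox stood at 0.03, Sox at 0.04 and Tbx at -0.03. Tbx was still 0.12 below Fox in KO decitabine cells and 0.11 below it in WT decitabine cells. In KO untreated cells Tbx was 0.10 below Sox after the matching and 0.02 above it before. Homeodomain genes, a further group of developmental regulators, were also low in WT untreated cells: their median was 0.26 below that of all genes, with 17 CpGs per window, and 0.05 below it after the same matching. In KO decitabine cells their median was 0.08 below that of all genes, and the members' median 0.004 above it. In WT decitabine cells after matching these stood 0.09 and 0.004 below it. The trait was not particular to developmental regulators: 25 housekeeping genes with CpG islands were 0.22 below all genes in WT untreated cells, and 0.06 below after matching. Across the 71 members the Spearman correlation of CpG content with level was -0.27 in KO decitabine cells, -0.40 in KO untreated cells, -0.56 in WT decitabine cells and -0.49 in WT untreated cells. These are descriptions across genes of 1 array. Distance from the start went with CpG content: Fox probes within 1000 bp of a start had a median of 29 CpGs per window and a level of -1.14 in WT untreated cells, against 9 CpGs and -0.75 for those farther away. In KO decitabine cells the Fox levels of these zones were -0.46 and -0.39. Tbx probes near a start had a median of 13 CpGs, and in WT untreated cells the levels of Tbx probes near and far from a start were -0.93 and -0.81.

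**Figure D3:**
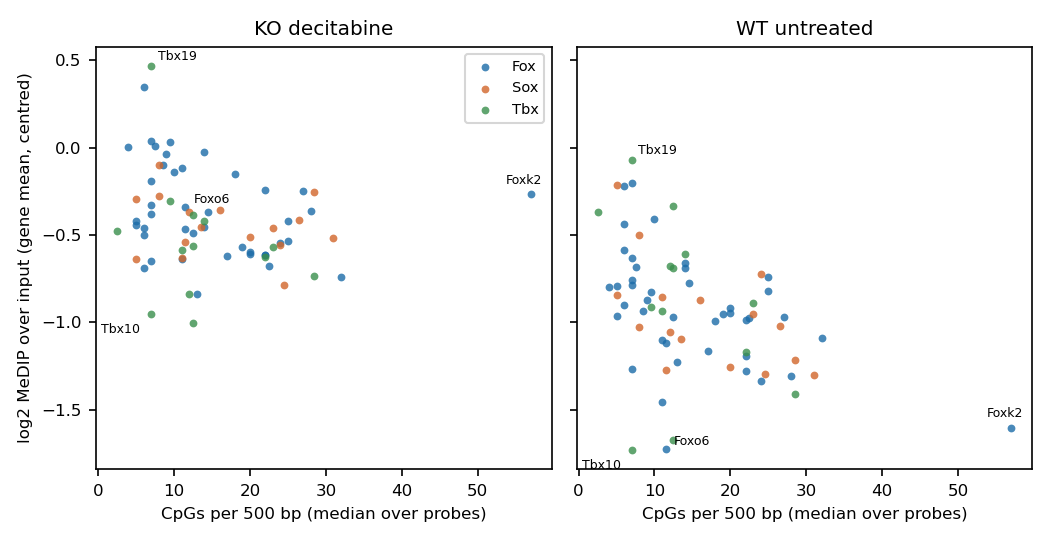
Log2 ratio of MeDIP over input of each member (y axis) against its median number of CpGs per 500 bp (x axis), in KO decitabine cells on the left and WT untreated cells on the right. Levels fall as CpG content rises in WT untreated cells (Spearman -0.49) and less so in KO decitabine cells (-0.27).

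After the matching, Tbx19 was still the highest member, at 0.60 averaged over the 4 arrays, followed by Foxp1 at 0.48 and Foxm1 at 0.46. Tbx10 at -0.90 and Tbx6 at -0.78 were lowest. Foxp1, a factor needed in B-cell development, had levels of 0.35 in KO decitabine cells, -0.26 in KO untreated cells, 0.09 in WT decitabine cells and -0.22 in WT untreated cells. It had 3 probes with MeDIP signal above background on all 4 arrays, as did Sox11, and no member had more. Foxm1, a driver of mitotic genes, had 7 kept probes and levels of 0.04, -0.49, -0.16 and -0.20 in the same order.

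Tbx6, a factor of the presomitic mesoderm, had levels of -1.01, -1.46, -0.98 and -1.67 over the same samples, and Tbx10 had -0.95, -1.34, -1.08 and -1.73. Only 1 probe of Tbx6 rose above the MeDIP background, in WT decitabine cells. Averaged over the arrays, Sox6 was the highest Sox gene, with -0.30, -0.23, -0.15 and -0.21, and Sox9, a factor of cartilage and testis, was the lowest, with -0.78, -1.17, -1.03 and -1.30. Sox5, which acts with Sox6 in cartilage, was the highest Sox gene on both decitabine arrays, at -0.10 in KO and 0.07 in WT cells, and on average it was next below Sox6, at -0.26 averaged over the arrays against -0.22 for Sox6, a difference far under the spread of their probes. In the Fox family Foxo6 was lowest on average at -1.06, next to Foxf2 at -1.04.

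Counted by probe, the MeDIP signal of the families rose above the background of its own array more often with decitabine. It did so for 16.9% of Fox, 16.7% of Sox and 13.7% of Tbx probes in KO decitabine cells, against 4.25%, 3.35% and 3.18% in KO untreated cells. In WT decitabine cells it did for 15.1% of Fox, 15.4% of Sox and 12.2% of Tbx probes, against 4.16%, 4.24% and 3.42% in WT untreated cells. All kept probes showed the same split, with 16.1% in KO decitabine cells against 4.09% in KO untreated cells, and 14.2% in WT decitabine cells against 4.08% in WT untreated cells. The limit was not common to the arrays. The lowest MeDIP signal that was well above background was 850 in KO decitabine and 1250 in KO untreated cells. It was 1035 in WT decitabine and 1400 in WT untreated cells. The part of this difference in the counts was not tested. Surrogate values filled 34.9% of the members' MeDIP signals in KO decitabine cells and 58.5% in KO untreated cells, and 36.7% in WT decitabine cells and 62.5% in WT untreated cells. Members with no MeDIP probe above background numbered 2 in KO decitabine cells, 31 in KO untreated cells, 5 in WT decitabine cells and 25 in WT untreated cells. Their part in the differences below was not tested.

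**Figure D4:**
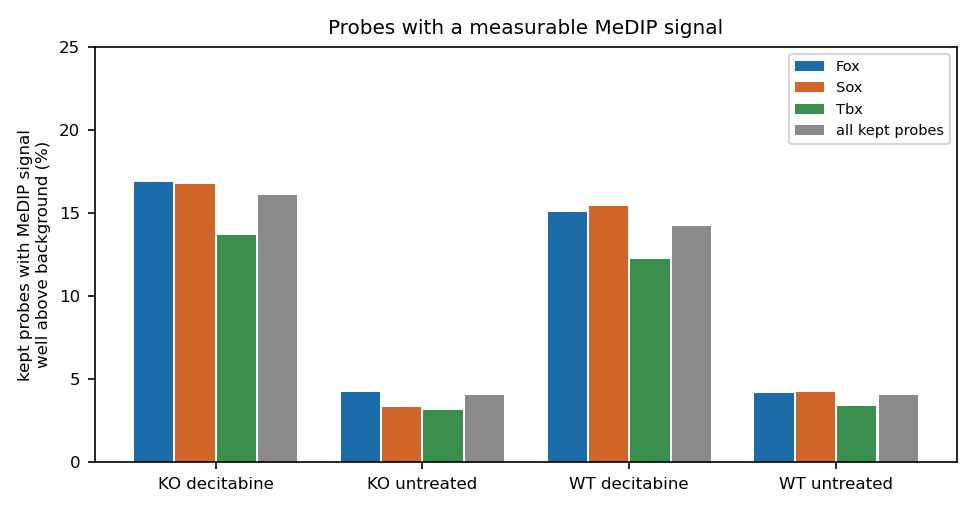
Percent of kept probes whose MeDIP signal was well above background (y axis) for the Fox, Sox and Tbx genes and for all kept probes, on the 4 arrays (x axis). Every bar of the decitabine arrays is above 12%, and every bar of the untreated arrays is below 5%.

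The first comparison asked how decitabine moved the members in each genotype. With arrays centred on the median of all probes, most members had a higher ratio with decitabine, as did most genes, but this sign turned with the centring. By that centring 64 of 71 members in KO cells and 65 in WT cells lay above 0, against 76.1% and 79.7% of all genes. Centred on probes above the MeDIP background on all 4 arrays, 2 members in KO cells and 9 in WT cells lay above 0, against 2.57% and 12.7% of all genes, and with loess 29 and 27 did, against 31.0% and 35.5%. With the deposited log ratio 36 did in KO cells and 66 in WT cells, against 37.4% and 81.4% of all genes. As centred here, the members' median difference was 0.28 in KO cells and 0.35 in WT cells, against 0.21 and 0.25 for all genes. By family, the Fox median was 0.30 in KO cells and 0.38 in WT cells, the Sox median 0.25 and 0.34, and the Tbx median 0.18 and 0.34. With CpG-matched probes the members' median stood 0.05 below that of all genes in KO cells and 0.02 above it in WT cells. A difference was counted at 2-fold or more where at least 80% of a gene's probes moved the same way. In KO cells 1 member reached that, Foxo6, against 1.14% of all genes that were higher and 0.0109% that were lower. In WT cells 0 members did, against 1.36% higher and 0.0218% lower. These counts come from 1 array a group and carry no test, and Foxo6 was below 2-fold or the 80% share with the deposited log ratio, normexp background, loess or CpG matching.

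Foxo6, a FoxO factor known mainly from the brain, lies on chromosome 4 (119939684 to 119959954, minus strand). Its 36 kept probes averaged -0.34 ± 0.88 in KO decitabine cells and -1.38 ± 0.92 in KO untreated cells, a 2.06-fold higher ratio with 31 of 36 probes up. They averaged -0.78 ± 1.07 in WT decitabine cells and -1.72 ± 1.5 in WT untreated cells, 1.93-fold higher with 27 of 36 probes up (SD over probes). MeDIP signal was above background at 12 probes in KO decitabine cells and 3 in KO untreated cells, and at 9 in WT decitabine cells and 3 in WT untreated cells. At the 3 probes above background on both KO arrays the mean log2 difference was 0.97, and at the 2 such probes of the WT arrays it was 0.40. The probe 482 bp before the start, printed above, gave -0.50 in KO decitabine cells, -2.48 in KO untreated cells, -1.94 in WT decitabine cells and -3.58 in WT untreated cells, and its MeDIP signal was well above background in KO decitabine cells only.

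Foxj3, a forkhead factor needed for meiosis in the mouse testis, lies on the same chromosome (119212266 to 119301724, plus strand). Its 13 probes averaged -0.12 ± 0.60 in KO decitabine cells and -0.99 ± 1.42 in KO untreated cells, and -0.48 ± 1.12 in WT decitabine cells and -1.46 ± 1.42 in WT untreated cells. No probe of Foxj3 was above the MeDIP background in either untreated sample, against 4 in KO decitabine cells and 5 in WT decitabine cells. Measured against the lowest signal that was well above background, those 4 probes were at least 1.77-fold higher in KO decitabine than KO untreated cells, and those 5 at least 1.25-fold higher in WT decitabine than WT untreated cells. The bounds use probes taken for being bright with decitabine, so their direction was set by that choice. Their size holds for the centring used here, under which the members' median decitabine difference was 0.28 in KO cells and 0.35 in WT cells. Centred on probes above the MeDIP background on all 4 arrays, that median was -0.59 in KO cells and -0.25 in WT cells. The probe 22 bp before the start gave -0.08 in KO decitabine cells, -2.33 in KO untreated cells, -1.15 in WT decitabine cells and -2.55 in WT untreated cells, with surrogate MeDIP signals in both untreated samples.

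At 1.5-fold, 3 members counted as higher in KO cells, Foxo6, Foxj3 and Foxq1, against 3.93% of all genes, and 1 in WT cells, Foxj3, against 4.15%. None was lower at 1.5-fold in either genotype, against 0.562% of all genes in KO cells and 0.485% in WT cells. At the other end, 4 members had a lower ratio with decitabine in both genotypes: Foxp2, Foxr1, Tbx15 and Tbx20. Tbx15, a factor of skeletal development, was lower by 0.10 in KO cells and by 0.13 in WT cells. Tbx20, which acts in the heart, was lower by 0.17 in KO cells and by 0.15 in WT cells. The sign was shared by both genotypes in 66 of 71 members and opposed in 5. No such share of all genes is given, but 76.1% of them in KO cells and 79.7% in WT cells lay above 0. These signs hold for the centring used here. Centred on probes above the MeDIP background on all 4 arrays, only 2 members in KO cells and 9 in WT cells lay above 0.

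**Figure D5:**
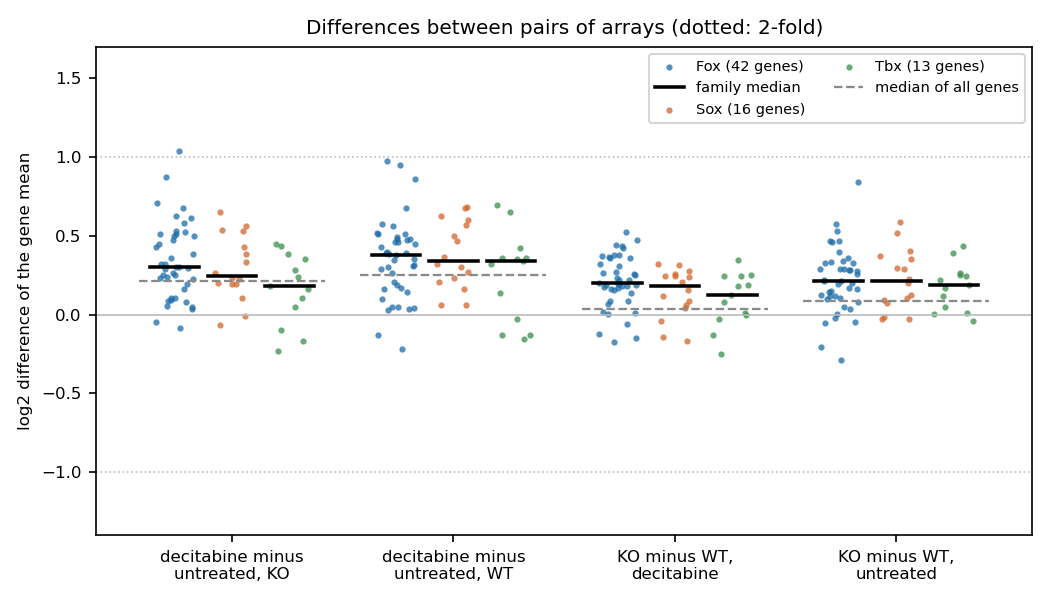
Log2 differences of the gene mean between pairs of arrays (y axis) for each Fox, Sox and Tbx gene: decitabine minus untreated in KO and WT cells, and KO minus WT with decitabine and without. Black bars are family medians, dashed lines the medians of all genes, and dotted lines mark 2-fold. Foxo6, at 1.04 in KO cells, is the only point past a dotted line.

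A limma model with genotype and treatment as additive terms used all 4 arrays and was fitted to all 18332 genes, with p-values adjusted by Benjamini-Hochberg over all of them. It has 1 residual degree of freedom, so its error rests on the disagreement between the genotypes and not on a spread of biological replicates. limma also draws the error of each gene toward a value pooled over all genes. Among the members that passed for decitabine, standard errors ran only from 0.12 to 0.13. At an adjusted p under 0.05, 28 of 71 members were higher with decitabine and 0 were lower, against 29.8% of all genes higher and 1.73% lower; with arrays centred on probes above the MeDIP background on all 4 arrays, 0 members were higher and 28 were lower. That scaling moved the median effect of all genes to -0.50, against 0.23 with the centring used here. The count of members also fell to 0 with loess normalization within arrays and to 1 with the deposited log ratio. By family 18 of 42 Fox, 6 of 16 Sox and 4 of 13 Tbx genes passed, with effects of 0.36 to 0.99. Foxo6 had an effect of 0.99 ± 0.12 (SE, adjusted p = 0.0013 by limma) and Foxj3 one of 0.93 ± 0.12 (adjusted p = 0.0017 by limma). Both stayed positive under the other scaling, at 0.26 for Foxo6 and 0.19 for Foxj3, without passing the test, and neither passed with loess.

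The members that passed were spread over subfamilies. With 31.5% of all genes passing in either direction, counts in subfamilies of 1 to 6 genes are a description, and differences between them were not tested. Among the Sox genes they were Sox4, Sox11, Sox12, Sox30, Sox5 and Sox8, so all 3 members of group C (Sox4, Sox11 and Sox12) passed and 0 of 3 in group B1 (Sox1, Sox2 and Sox3) and 0 of 3 in group F (Sox7, Sox17 and Sox18). Sox4, which is needed for early B cells, had levels of -0.51 in KO decitabine cells, -1.17 in KO untreated cells, -0.63 in WT decitabine cells and -1.26 in WT untreated cells. Its 33 probes held 5 above the MeDIP background in KO decitabine cells and 8 in WT decitabine cells, and none in the untreated samples. Measured against the lowest signal well above background, those 5 probes were at least 2.35-fold higher in KO decitabine than KO untreated cells. The 8 probes were at least 1.53-fold higher in WT decitabine than WT untreated cells. The direction was again set by the choice of probes, and both sizes hold for the centring used here. Among forkhead genes all 3 of subfamily J passed, 3 of 4 in subfamily O and 0 of 4 in subfamily N. Among T-box genes Tbx1, Tbx10, Tbx21 and Tbx6 passed, and 0 of 4 in the Tbx2 subfamily.

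Of 11 members with known roles in blood cells, 6 passed with decitabine, all higher, against 29.8% of all genes: Foxo1, Foxo4, Foxp1, Foxp3, Sox4 and Tbx21. None of the members passed with loess, and none was called higher with bright-probe centring. Their list had a median difference of 0.45 in KO cells and 0.31 in WT cells, against 0.21 and 0.25 for all genes. Foxp3, which defines regulatory T cells, had levels of 0.00 in KO decitabine cells, -0.51 in KO untreated cells, -0.30 in WT decitabine cells and -0.80 in WT untreated cells. Tbx21, the master factor of Th1 cells, had -0.30, -0.74, -0.55 and -0.91 in the same order. Of 9 members whose human counterparts are often methylated in cancer, 2 passed, against 31.5% of all genes in either direction: Foxd3, known in neural crest, and Sox11. The list had a median difference of 0.20 in KO cells and 0.24 in WT cells, and its median level over the arrays was -0.70, the same as the -0.70 of all members. Sox1, on that list, stood at -0.52 in KO decitabine cells, -0.71 in KO untreated cells, -0.83 in WT decitabine cells and -1.30 in WT untreated cells.

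Members that lie next to each other in the genome did not always move alike. On chromosome 13, Foxq1 was 0.71 higher with decitabine in KO cells and 0.51 higher in WT cells. Foxf2, which begins 64846 bp after the end of Foxq1, was 0.06 and 0.03 higher, and Foxc1, a further 175243 bp on, was 0.36 and 0.56 higher. On chromosome 4, Foxd2 was 0.63 higher with decitabine in KO cells and 0.46 higher in WT cells, and its neighbour Foxe3, a lens factor, was 0.08 and 0.38 higher. On chromosome 5, Tbx3 was 0.05 higher in KO cells and 0.03 lower in WT cells, and Tbx5 was 0.17 higher and 0.13 lower.

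Relatives of the families with other names were measured as well. Brachyury, listed as T, is the founding T-box gene and acts in the early mesoderm. Its levels, over 4 kept probes, were -0.61 in KO decitabine cells, -0.05 in KO untreated cells, -0.65 in WT decitabine cells and 0.04 in WT untreated cells. For T the limma effect of decitabine was -0.63 ± 0.12 (SE, adjusted p = 0.0071 by limma). With the centring used here this was opposite in sign to the 28 members that passed. Tbr1, a T-box factor of the cortex, was higher by 0.36 (adjusted p = 0.046 by limma), and Sry, the testis-determining HMG box gene, by 0.43 (adjusted p = 0.040 by limma). The HMG box factors Tcf7 and Tcf7l2 were higher by 0.48 and 0.54, and Eomes, Mga and Lef1 did not pass. The signs of all these relatives hold for the centring used here. Centred on probes above the MeDIP background on all 4 arrays, 28 members passed as lower and 0 as higher. The median effect of all genes was then -0.50.

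The second comparison set KO against WT cells. As centred here, KO cells had slightly higher ratios at most members: the median difference was 0.19 with decitabine and 0.21 without, against 0.04 and 0.09 for all genes. In the MeDIP signal alone the members' median difference was -0.01 with decitabine and 0.03 without, both within 0.0183 of that of all genes. Input signal was above background on fewer spots in KO cells, 69.3% with decitabine and 74.7% without, against 80.4% and 83.9% in WT cells. Its part in the result was not tested. The members' median was also below 0 with loess, at -0.02 both with and without decitabine, and with centring on bright probes it was -0.10 with decitabine and 0.19 without. By family the medians with decitabine and without were 0.20 and 0.21 for Fox, 0.18 and 0.21 for Sox, and 0.13 and 0.19 for Tbx. With CpG-matched probes the members stood 0.05 above all genes with decitabine and 0.04 above them without. No member differed by 2-fold in either direction. Among all genes 0.524% were higher and 0.0655% lower in KO cells with decitabine, and 0.327% were higher and 0.0927% lower without. Counted as for decitabine, with its 80% limit on probes, Sox1 alone was higher at 1.5-fold, in untreated KO cells, against 2.75% of all genes. No member was lower there, against 1.01%. Without that limit the largest difference among members in untreated cells was 1.79-fold, in Foxk2. With decitabine no member passed 1.5-fold, against 2.29% of all genes higher and 1.16% lower.

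In the limma model 1 of 71 members passed for genotype, higher in KO cells, against 2.96% of all genes higher and 1.12% lower. This was Foxk2, with an effect of 0.66 ± 0.13 (SE, adjusted p = 0.031 by limma) over 4 kept probes, and it did not pass with the deposited log ratio, loess or CpG matching. Its levels were -0.27 in KO decitabine cells, -0.76 in KO untreated cells, -0.74 in WT decitabine cells and -1.60 in WT untreated cells, and 1 probe was above the MeDIP background on each decitabine array and none on the untreated arrays. Foxc1, a factor of eye and mesenchyme development, was 0.38 higher in KO than WT cells with decitabine and 0.58 higher without. Foxp4 was 0.44 and 0.53 higher, and Foxl2, an ovarian factor, 0.53 and 0.36 higher, with decitabine and without. Sox6 was lower in KO cells by 0.14 with decitabine and by 0.02 without.

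The responses to decitabine themselves differed little between the genotypes. The difference, KO minus WT, had a median of -0.06 over members and -0.05 over all genes, and no member reached 2-fold, against 0.175% of all genes higher and 0.256% lower. None reached 1.5-fold, against 0.862% higher and 1.52% lower. It ran from -0.37 to 0.48, with Foxm1 at the high end and Tbx22 at the low end.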

How the data were processed

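Per the file headers, the authors extracted each 2-colour array with Agilent Feature Extraction 10.5.1.1 (10.5 per the submitters' processing notes). The deposited intensities are linear, background-subtracted, detrended, dye-normalized and replaced by surrogates near background. Per the labels, Cy3 was MeDIP and Cy5 input DNA on every array, both amplified across the whole genome. The deposited log10 ratio (Cy5 over Cy3) served as an alternative. From the intensities, log2 MeDIP over input was taken, spots of a probe averaged and each array centred on its median. Kept probes, 328399 of 520554, had input well above background and no outlier flag on all 4 arrays. A gene is the mean of at least 3 kept probes. limma 3.58.1 (R 4.3.3) was fitted to all genes, and the step was checked on simulated data. CpGs and annotation came from NCBI37 with GENCODE vM1, on which all 25988 probes compared matched.

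Members and lists were chosen with earlier results of these data known. The rules for naming took members past 2-fold in a comparison, the 3 highest and 3 lowest of each family, and the blood and cancer lists. They also took the 5 largest differences each way among members with a probe above the MeDIP background on both arrays. The 5 members with most probes above that background on all 4 arrays were taken too. Some members outside these rules are named as well, among them Foxq1, Foxp2, Foxr1 and Tbx3. Settings tried were the deposited log ratio, normexp background, loess, centring on bright or kept probes, CpG matching, other filters, the median over probes, probes within 1 kb of a start, MeDIP alone, and a 1.5-fold limit. The series value table was not used. The number of arrays limits the precision.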

Additional observations from a re-analysis of the deposited data

Results flagged for a closer look

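In 3 members the difference had opposite signs in the 2 settings of the same contrast, each with a size of at least 0.1 on the log2 scale. With 1 array a group these differences were not tested, and their signs hold for the centring used here. No share of all genes under this rule is given, so 3 members cannot be called many or few. Tbx22, a palate gene on the X chromosome, was -0.23 with decitabine in KO cells and 0.14 in WT cells, and its KO minus WT difference was -0.25 with decitabine and 0.12 without. Tbx5, a factor of heart and forelimb, was 0.17 with decitabine in KO cells and -0.13 in WT cells. Foxm1, with 7 probes, had a KO minus WT difference of 0.19 with decitabine and -0.29 without.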

How the results depend on the processing

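Of the values of the main results recomputed under an alternative, 135 were counted as the same, 46 as moved and 2 as reversed. The 135 include small differences from all genes whose sign turned. The Fox level went from -0.0904 to 0.0050 with MeDIP alone. The members' decitabine difference in KO cells went from 0.0711 to -0.0508 with CpG matching. The 135 also include differences from all genes under bright-probe or kept-probe centring. These could not change, because such centring shifts every gene of an array alike. Averaged over the arrays, the family medians moved against all genes with CpG matching, to 0.0296 for Fox, 0.0437 for Sox and -0.0265 for Tbx. Without matching the same averages were -0.0904 for Fox, with Sox and Tbx below 0 as well. They also moved with MeDIP alone, to 0.0758 for Sox and -0.0269 for Tbx, and within 1000 bp of a start, to -0.0463 for Tbx. Members past 2-fold with decitabine in KO cells numbered 1. They were 0 with the deposited log ratio, normexp, loess, CpG matching, no filter on dim probes or centring on kept probes. They were 2 with the median over probes (1.41% of all genes), and 3 with MeDIP alone (2.98%) or a 1.5-fold limit (3.93%). They were 4 within 1000 bp of a start (3.57%) or with bright probes only (4 of 8 members left, against 43.5% of genes). With centring on bright probes 0 were higher and 2 were lower, Tbx20 and Tbx22, against 12.8% of all genes lower. In WT cells they numbered 0, and 1 with the median over probes (1.34% of all genes) or a 1.5-fold limit (4.15%). They numbered 2 with bright probes only (of 5 members left, against 18.3% of genes), 3 with MeDIP alone (4.0%) and 7 within 1000 bp (3.55%). For KO minus WT without treatment there was 1 with normexp (0.796% of all genes) or a 1.5-fold limit (2.75%), in place of 0. For KO minus WT with decitabine there were 2 within 1000 bp (1.24%) or with bright probes only (of 45 members left, against 2.43% of genes), in place of 0. In that comparison the members' median minus that of all genes was -0.0183 with MeDIP alone, in place of 0.155. Members passing for decitabine in limma numbered 28. Beside the percent of all genes passing in that setting, they were 0 with loess (1.39%), 1 with the deposited log ratio (1.46%), 3 with the median over probes (5.58%), 4 with CpG matching (3 higher, 1 lower, 9.88%), 9 without the dim filter (16.2%), 11 with centring on kept probes (14.5%), 17 with normexp (20.7%) and 67 with MeDIP alone (83.5%). With centring on bright probes 28 were lower (55.2%). Members passing for genotype numbered 1. They were 0 with the deposited log ratio, loess, CpG matching, the median, MeDIP alone or bright-probe centring, 9 within 1000 bp (8.88%), and 10 with normexp (12.6%) or no dim filter (14.8%). Foxo6 fell short of the threshold at 0.21 with loess and 0.26 with bright-probe centring, and Foxj3 at 0.74 with the deposited log ratio, 0.43 with loess and 0.19 with bright-probe centring. Members with a block were 6 with centring on bright probes (6.30% of all genes), 14 with CpG matching (13.7%) and 16 with centring on kept probes (17.2%), in place of 4 (3.52%). The cause of these shifts was not tested. The block rule and the kept-probe centring were chosen after seeing the data. No paired analysis was possible because each group has 1 array. For the same reason no replicate could be left out, and slide as a block was not run. MeDIP signal near background limits the untreated arrays most.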
